A study of Mus musculus with 62 samples.

Results

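Translation factors are the proteins that start polypeptide chains on the ribosome and extend them. The genes described here are those whose mouse symbol begins with Eif or Eef followed by a digit, and 62 of the 11121 genes counted met that rule. All 62 are annotated as protein-coding. The mice were wild-type C57BL/6j males, 15 weeks old when tissue was taken. Those called mCRS had gone through multimodal chronic restraint stress, in which mice are restrained in tubes on successive days in varying settings, and those called CTR were left unstressed. RNA from 2 brain regions, prefrontal cortex (PFC) and nucleus accumbens (NAc), was read by BRB-seq, which counts fragments near the 3′ end of polyadenylated RNA. There were 15 PFC CTR, 15 PFC mCRS, 16 NAc CTR and 16 NAc mCRS libraries, and which PFC and NAc libraries share a mouse is not stated. The tissue was bulk, so fewer cells of a type and less RNA per cell cannot be told apart in any value below.

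In initiation, eIF2 carries the initiator tRNA to the small ribosomal subunit together with eIF1, eIF1A, eIF3 and eIF5, and the exchange factor eIF2B reloads eIF2 with GTP. The cap complex eIF4F, made of the cap binder eIF4E, the scaffold eIF4G and the helicase eIF4A, brings that subunit to the mRNA, and the eIF4E-binding proteins can block it. In elongation, eEF1A delivers aminoacyl-tRNA, the other eEF1 subunits recharge eEF1A, and eEF2 moves the ribosome along the mRNA. Kinases of eIF2 alpha and the kinase of eEF2 slow these steps, for instance under stress. Mature neurons use the isoform eEF1A2 where most other cells use eEF1A1, and local protein synthesis near synapses is needed for lasting plasticity.

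The stretches just before the RefSeq transcription start (GRCm38.p6, 5′ to 3′) are shown for 3 genes whose level differed between the brain regions and for the isoform pair Eef1a1 and Eef1a2, so that their start regions can be compared. Capitals mark matches to TATAAA or, on either strand, GGGCGG. The matches in the first run of capitals in Eif1ax overlap one another, and its last match stands apart. For Eif4a2 the 24 bases nearest the start are left off, because they lie in an annotated GENCODE exon.
Eef1a1, chr9:78481725-78481784, minus strand: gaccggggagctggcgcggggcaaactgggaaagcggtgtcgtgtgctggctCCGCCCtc
Eef1a2, chr2:181157016-181157075, minus strand: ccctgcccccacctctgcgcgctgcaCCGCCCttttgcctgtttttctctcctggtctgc
Eef2, chr10:81176571-81176630, plus strand: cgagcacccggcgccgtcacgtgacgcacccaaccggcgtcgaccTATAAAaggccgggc
Eif1ax, chrX:159372118-159372177, plus strand: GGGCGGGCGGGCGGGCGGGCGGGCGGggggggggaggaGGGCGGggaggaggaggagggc
Eif4a2, chr16:23107408-23107443, plus strand: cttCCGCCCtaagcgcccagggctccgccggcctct
In the 250 bases before the start, Eef2 held TATAAA and no GGGCGG, the other genes shown held GGGCGG and no TATAAA, and none held CCAAT. Over 65 RefSeq promoters of 50 of the genes, searched on both strands, 67.7% held GGGCGG, 7.69% held TATAAA and 23.1% held CCAAT. Over all 32851 promoters of the table these shares were 32.7%, 12.4% and 33.8%. That table spans 27025 gene symbols and was not limited to the 11121 genes counted here. Translation factors were not compared with the promoters of counted genes alone. The median GC content of the same stretch was 61.2% for translation factors and 52.4% for all promoters. Such a match is a match of letters and not a bound site.

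Library totals ran from 945286 to 4857359 counts, and translation factors took 0.732% to 0.988% of them. Together the 62 genes held 1349640 counts, with a median of 10946.5 per gene. In 36 genes every library had a count, and 26 genes were at 0 in at least 1 library. Levels are given as CPM, the counts of a gene per 1000000 counts of its library, scaled by TMM and not divided by transcript length, so they are compared between libraries and not between genes. The filter on low counts kept 59 of the genes for the PFC, 59 for the NAc, 62 for the difference between the regional mCRS effects, 59 for the regions of CTR mice and 58 for the regions of mCRS mice. Eef2kmt, Eif2ak3 and Eif4ebp1 were tested only where all 62 libraries entered, and Eif4e3 was not tested between the regions of mCRS mice. As a check of the tissue, 9 markers of striatal projection neurons summed to 268 to 1260 CPM in PFC libraries and to 510 to 8220 CPM in NAc libraries. The value of 510 came from NAc CTR replicate 7, which stood within the PFC range for these markers. In that library 7 cortical excitatory markers summed to 589 CPM, beside 570 to 1380 CPM in NAc CTR and 3990 to 7640 CPM in PFC CTR libraries. Results that change without that library are given both ways.

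The first comparison asked whether mCRS altered translation factors in the PFC. None passed a Benjamini-Hochberg FDR of 0.05 in edgeR's quasi-likelihood test, and the smallest FDR was 0.918. Of all 8916 genes tested, 0% passed. By DESeq2 the number of translation factors at that FDR was also 0. DESeq2 gave no adjusted p for Eif3l, Eif2b5 and many others, so this 0 covers only the genes that had an adjusted p. At an unadjusted p below 0.05, 2 translation factors were higher in mCRS mice (Eif3l and Eif4a2) and 2 were lower (Eef1a2 and Eif2b5), by edgeR as by DESeq2. Of all genes, 2.12% were higher and 1.38% lower at that p by edgeR, and 4.92% were at it in either direction by DESeq2. Of the 59 tested, 37 had a positive and 22 a negative fitted change, with a median log2 fold change of 0.05 beside -0.01 over all genes.

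PFC mCRS libraries also differed from PFC CTR libraries in other measures. The median library total was 1966931 against 2398072 counts, and the median share of genes detected was 84.1% against 86.3%. The median share of mitochondrial DNA-encoded counts was 15.7% against 12%, and 7 cortical excitatory markers summed to a median of 4630 against 5730 CPM. Median sums were also lower for astrocyte (2520 against 2920), pan-neuronal (5970 against 6250), endothelial (227 against 274) and microglia markers (223 against 224 CPM). They were higher for oligodendrocyte (3640 against 3370) and striatal markers (756 against 622 CPM). When the share of genes detected entered the model, 1 of the 4 genes, Eif3l, remained at an unadjusted p below 0.05, and the same gene alone remained when log2 library size entered it. Over 30 fits that each left out 1 library, Eif2b5 was no longer at that p in 21, Eef1a2 in 17, Eif4a2 in 14 and Eif3l in 0. The part of the mitochondrial share and of the markers in these results was not tested.

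Eif3l encodes a peripheral subunit of the scaffold eIF3 and lies at chr15:79075179-79094405 on the plus strand (GRCm38). Its level ran from 10.5 to 90.6 CPM in PFC CTR libraries, with a median of 37.3, and from 15.1 to 221 CPM in PFC mCRS libraries, with a median of 81.3. In 13 of 15 mCRS libraries it was above the CTR median, while 10 of the 15 stayed within the CTR range. The log2 fold change was 1.16 ± 0.40 (SE; 95% CI 0.36 to 1.96; unadjusted p = 0.00546 and FDR 0.918 by edgeR). In the NAc its medians were 71.7 CPM in CTR and 72.9 CPM in mCRS libraries, with a log2 fold change of 0.05 (95% CI -0.70 to 0.79).

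The eIF3 subunits as a whole did not move one way. Of the 13 subunits tested in the PFC, 9 had positive and 4 negative changes, the median log2 fold change was 0.06, and Eif3l was the only one at an unadjusted p below 0.05. Eif3m had medians of 52.2 CPM in CTR and 86.6 CPM in mCRS libraries (log2 fold change 0.85 ± 0.46 SE, unadjusted p = 0.0689 by edgeR). Of the 70-base windows near its 3′ end, 32.1% had a copy in a transcript of another gene. Eif3g, an RNA-binding subunit, had medians of 118 and 81.8 CPM (log2 fold change -0.51 ± 0.32 SE, unadjusted p = 0.122 by edgeR). Eif3e, Eif3f and Eif3h had log2 fold changes of 0.05, 0.11 and 0.20.

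Eif2b5 encodes the catalytic subunit of eIF2B, mutated in vanishing white matter disease. It ran from 2.75 to 117 CPM in PFC CTR libraries with a median of 52.3, and from 0 to 70.6 CPM in PFC mCRS libraries with a median of 13.7. In 13 of 15 mCRS libraries it was below the CTR median, and the ranges overlapped. The fitted log2 fold change was -1.27 ± 0.63 (SE; 95% CI -2.53 to -0.02; unadjusted p = 0.0469 and FDR 1 by edgeR). Of the 9 subunits of eIF2 and eIF2B, 6 had positive and 3 negative changes. Eif2s2, the beta subunit of eIF2, had medians of 82.4 and 111 CPM (log2 fold change 0.56 ± 0.32 SE, unadjusted p = 0.0895 by edgeR), and Eif2s1, the alpha subunit that the stress kinases phosphorylate, had a log2 fold change of 0.02 (95% CI -0.99 to 1.04).

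Eif4a2 encodes a helicase of the cap complex. It ran from 149 to 566 CPM in PFC CTR libraries with a median of 265, and from 226 to 917 CPM in PFC mCRS libraries with a median of 329. In 12 of 15 mCRS libraries it was above the CTR median. mCRS minus CTR, the log2 fold change was 0.41 ± 0.20 (SE; 95% CI 0.0018 to 0.82; unadjusted p = 0.0490 and FDR 1 by edgeR). Of 11 genes of the cap complex and its cofactors, 7 had positive and 4 negative changes. The cofactor Eif4b had medians of 120 and 190 CPM (log2 fold change 0.48 ± 0.32 SE, unadjusted p = 0.136 by edgeR). Log2 fold changes of Eif4a1, Eif4e and Eif4g2 were 0.25, 0.22 and 0.09, and that of the eIF4E-binding protein gene Eif4ebp2 was -0.24. Eif4ebp1 was not tested, and its PFC medians were 6.72 CPM in CTR and 1.04 CPM in mCRS libraries.

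Among the elongation factors, Eef1a2 ran from 585 to 1060 CPM in PFC CTR libraries with a median of 841, and from 319 to 906 CPM in PFC mCRS libraries with a median of 683. In 14 of 15 mCRS libraries it was below the CTR median, and 12 of the 15 were within the CTR range. Its log2 fold change was -0.26 ± 0.13 (SE; 95% CI -0.52 to -0.0020; unadjusted p = 0.0483 and FDR 1 by edgeR). Eef1a1, a common reference gene in PCR work, had medians of 287 and 310 CPM (log2 fold change 0.03, 95% CI -0.33 to 0.39). Of the 70-base windows near its 3′ end 53.7% had a copy in another gene, against 0.0% for Eef1a2, so that counting of uniquely mapped reads can miss part of Eef1a1. The ratio of Eef1a2 to Eef1a1 CPM ran from 1.97 to 4.59 in PFC CTR libraries with a median of 3.08, and from 0.968 to 7.85 in PFC mCRS libraries with a median of 2.25. It is given as a description, without a test.

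The remaining elongation genes lay close to 0 or were imprecise. The log2 fold changes of Eef2, Eef1b2, Eef1g and Eif5a in the PFC were 0.05, 0.01, 0.03 and -0.12, with every 95% interval within 0.5 of 0. Those of Eef1d and Eef2k were 0.06 (95% CI -0.99 to 1.11) and 0.33 (95% CI -1.59 to 2.24). Of the initiation genes Eif1 and Eif6, the first had a log2 fold change of -0.07 (95% CI -0.37 to 0.23) and the second 0.28 (95% CI -0.56 to 1.11). The 9 genes with a terminal oligopyrimidine start, which is the class of mRNA whose translation depends most on mTOR, had 9 positive fitted changes in the PFC, from 0.01 to 0.48, and 0 were at an unadjusted p below 0.05 by edgeR. In the NAc 6 were positive and 3 negative. Of all 8916 genes tested in the PFC, 4397 had a positive change. The count of 9 in the PFC did not hold with the share of genes detected in the model, where Eef1a1 and Eef1b2 were negative, or with log2 library size, where Eef1b2 and Eef1g were. With replicate numbers as a block, Eef1a1 and Eef1d were negative. Leaving out 1 library made Eef1a1, Eef1b2, Eef1d, Eef1g, Eef2 or Eif3e negative in some fits. Of the 59 genes tested in the PFC the 95% interval lay within 1 log2 unit of 0 for 25 and within 0.5 for 8.

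**Figure D1:**
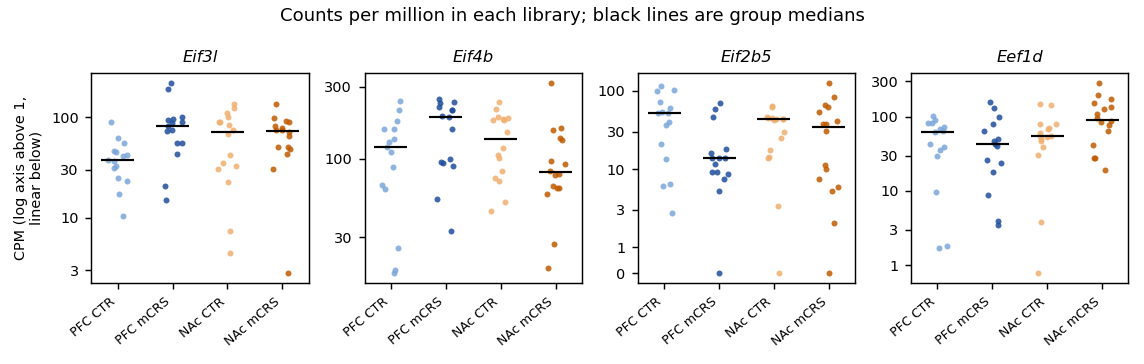
Level in each library of Eif3l, Eif4b, Eif2b5 and Eef1d, in CPM on an axis that is logarithmic above 1 and linear below, for the 4 groups; black lines are group medians. Eif3l has a median of 37.3 CPM in PFC CTR and 81.3 CPM in PFC mCRS libraries, and the groups overlap in every panel.

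In the NAc, 0 translation factors passed the FDR threshold by edgeR and 0 by DESeq2, where 0.00986% of all 10141 genes tested passed by edgeR. At an unadjusted p below 0.05, 1 was higher in mCRS mice and 0 were lower, beside 0.986% higher and 1.06% lower of all genes. By DESeq2 3 genes were at that p (Eef1d, Eif3h and Eif4ebp2), beside 3.33% of all genes in either direction. Fitted changes were positive for 28 and negative for 31 of 59 genes, with a median of -0.02 beside -0.01 over all genes.

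The gene at that p was Eef1d, which encodes an exchange factor subunit of eEF1. It ran from 0.667 to 149 CPM in NAc CTR libraries with a median of 55.5, and from 18.9 to 288 CPM in NAc mCRS libraries with a median of 91.6. In 12 of 16 mCRS libraries it was above the CTR median, and 12 of 16 were within the CTR range. Its log2 fold change was 0.79 ± 0.37 (SE; 95% CI 0.04 to 1.53; unadjusted p = 0.0384 and FDR 1 by edgeR), and in 8 of 32 fits that each left out 1 library it was no longer at that p. Eif4ebp2, which encodes a repressor of eIF4E, had medians of 49.8 and 37.0 CPM (log2 fold change -0.91 ± 0.47 SE, unadjusted p = 0.0565 by edgeR). Without NAc CTR replicate 7 the count rose to 2, since Eif4ebp2 then had a log2 fold change of -0.98 (unadjusted p = 0.041 by edgeR).

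Other NAc changes were small or imprecise. Eif3h had a log2 fold change of 0.39 (unadjusted p = 0.0675), Eif1ax 0.41 (p = 0.102), Eif4b -0.41 (p = 0.144) and Eif2s1 0.90 (p = 0.157), all by edgeR. Eif2d and Eef1akmt2, the latter a methyltransferase of eEF1A, had log2 fold changes of -0.78 and 1.16 with 95% intervals of -2.02 to 0.45 and -0.58 to 2.90. Eef1a1, Eef1a2 and Eef2 had log2 fold changes of 0.13, -0.08 and -0.10, each with a 95% interval within 0.5 of 0. The 95% interval lay within 1 log2 unit of 0 for 33 of the 59 genes and within 0.5 for 15. The direction was the same in PFC and NAc for 36 of 59 translation factors (61%) and for 50.9% of 8716 genes.

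**Figure D2:**
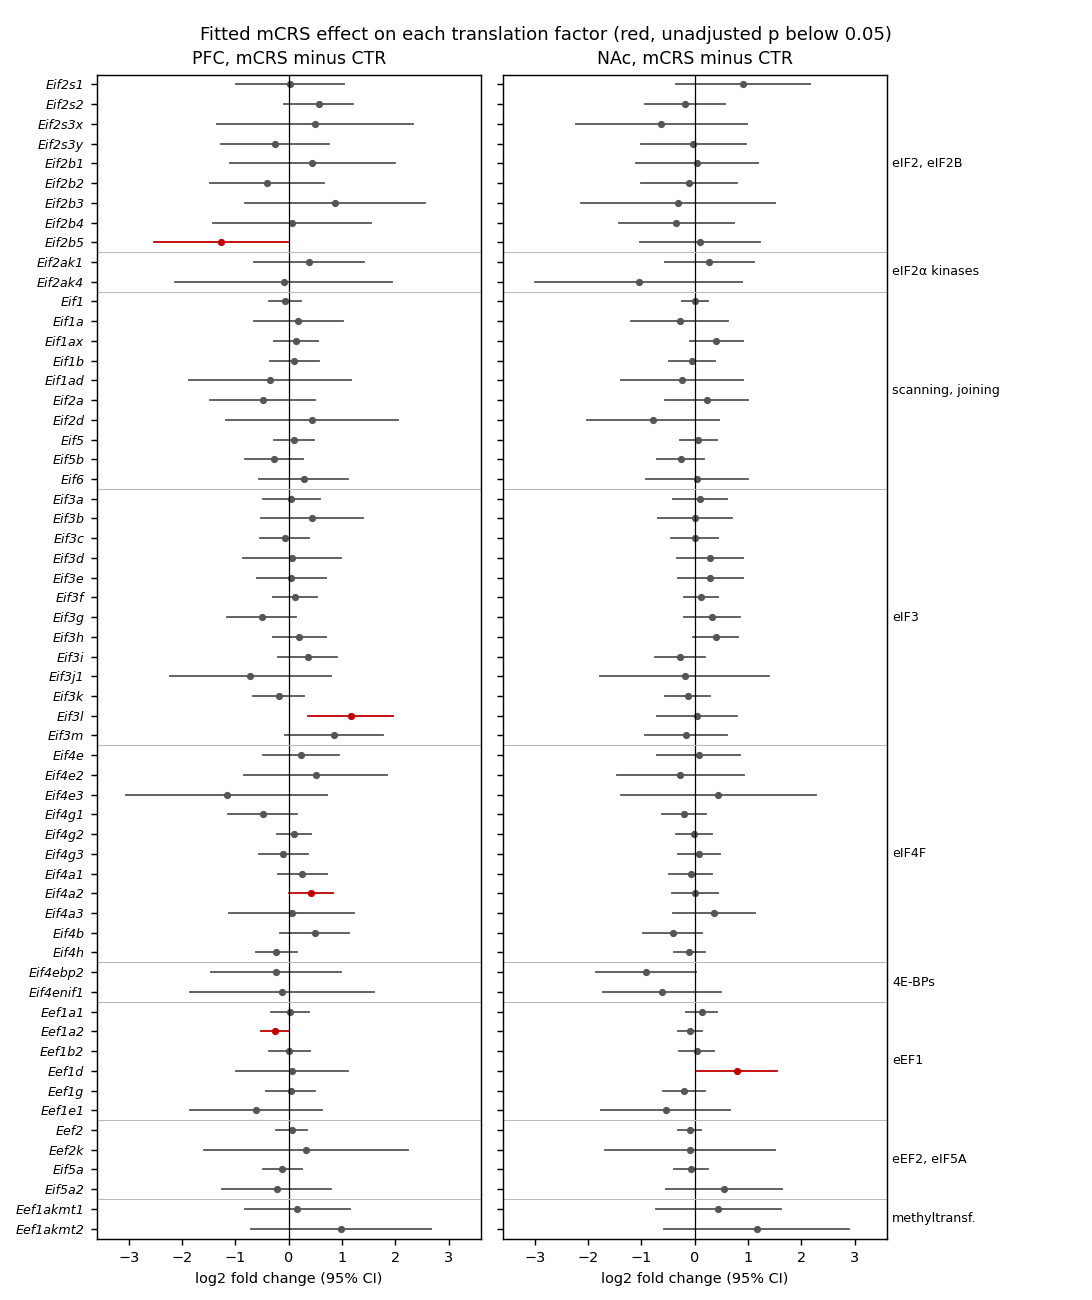
Fitted log2 fold change, mCRS minus CTR, with its 95% confidence interval for each translation factor tested, in the PFC on the left and the NAc on the right, ordered by role. Red marks an unadjusted p below 0.05, which 4 genes reach in the PFC and 1 in the NAc, and no gene passes an FDR of 0.05.

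The difference between the mCRS effects of the regions, PFC minus NAc, was tested over all 62 libraries. No translation factor passed the FDR threshold, by edgeR or by DESeq2, and 0.00907% of all 11025 genes passed by edgeR. At an unadjusted p below 0.05, 3 were higher and 1 was lower, beside 1.45% and 1.64% of all genes. Eif3l had a difference of 1.095 ± 0.535 log2 units (SE; unadjusted p = 0.0437 by edgeR). Over 8 other settings of the fit, that difference ran from 0.79 to 1.13. In 2 of those 8 settings Eif3l was no longer at an unadjusted p below 0.05. Eif4b had a difference of 0.89 ± 0.44 (SE; unadjusted p = 0.0438 by edgeR), with NAc medians of 134 CPM in CTR and 81.3 CPM in mCRS libraries. Eif3g had a difference of -0.85 ± 0.41 (SE; unadjusted p = 0.0437 by edgeR), with NAc medians of 111 and 118 CPM. Eif2b5, low in PFC mCRS libraries, had a difference of -1.38 (95% CI -3.03 to 0.27).

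The smallest p in that test belonged to Eef2kmt, which encodes the methyltransferase of eEF2, and rested on few counts. It had 20 counts over PFC CTR libraries, where 8 of 15 were at 0, and 216 counts over PFC mCRS libraries, where 10 of 15 were at 0 and a single library held 46.8% of the counts. The difference of the effects was 4.41 ± 1.63 log2 units (SE; unadjusted p = 0.00822 by edgeR). Of the next genes by p, Eif3i had a difference of 0.62 (p = 0.0856 by edgeR), Eif3m 1.01 (95% CI -0.20 to 2.21) and Eif2s2 0.73 (95% CI -0.27 to 1.74).

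The regions themselves were compared in CTR and in mCRS mice separately, as NAc minus PFC. In CTR mice 3 of 59 translation factors passed the FDR threshold: Eef2 was higher in the NAc, and Eif1ax and Eif4g2 were lower. Of all 9932 genes tested, 2.09% were higher and 4.23% lower. In mCRS mice 5 of 58 passed, Eef2 higher and Eif4a2, Eif4g2, Eif1ax and Eif3i lower, beside 2.07% higher and 4.23% lower of 9452 genes. In both sets of mice the ranges of PFC and NAc overlapped for every translation factor tested. Ranges without overlap were rare over all genes too, with 42 of 9932 in CTR mice and 30 of 9452 in mCRS mice.

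Eef2, at chr10:81176631-81182498 on the plus strand, encodes the translocase of elongation and carried the TATAAA match shown above. In CTR mice it ran from 408 to 974 CPM in the PFC with a median of 640, and from 708 to 1210 CPM in the NAc with a median of 925. All 16 NAc libraries were above the PFC median, and 9 were within the PFC range. The log2 fold change was 0.58 ± 0.12 (SE; 95% CI 0.33 to 0.82; FDR 0.000816 by edgeR). In mCRS mice the medians were 618 and 845 CPM and the log2 fold change was 0.43 ± 0.13 (SE; FDR 0.0354 by edgeR). That FDR was 0.0505 when library sizes from before the filter were used.

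Eif1ax, at chrX:159372178-159389928 on the plus strand, encodes an X-linked eIF1A, which helps the ribosome scan for the start codon. In CTR mice it ran from 74.7 to 336 CPM in the PFC with a median of 228, and from 42.0 to 247 CPM in the NAc with a median of 91.1. In 15 of 16 NAc libraries it was below the PFC median. The log2 fold change was -1.07 ± 0.24 (SE; 95% CI -1.55 to -0.59; FDR 0.00157 by edgeR), and in mCRS mice it was -0.78 ± 0.21 (SE; FDR 0.0127 by edgeR). With the share of genes detected in the model, the FDR in mCRS mice was 0.0978.

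Eif4g2 encodes an eIF4G relative that lacks the binding site for eIF4E. In CTR mice it ran from 234 to 781 CPM in the PFC with a median of 502, and from 225 to 629 CPM in the NAc with a median of 299. In 14 of 16 NAc libraries it was below the PFC median. The log2 fold change was -0.60 ± 0.17 (SE; FDR 0.0142 by edgeR) in CTR mice and -0.71 ± 0.16 (SE; FDR 0.00212 by edgeR) in mCRS mice, where the medians were 587 and 355 CPM and all 16 NAc libraries were below the PFC median.

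Eif4a2, at chr16:23107444-23114136 on the plus strand, passed in mCRS mice only, which by itself does not show that the sets of mice differ. In mCRS mice it ran from 226 to 917 CPM in the PFC and from 75.4 to 309 CPM in the NAc, with medians of 329 and 186, and all 16 NAc libraries were below the PFC median. The log2 fold change was -1.03 ± 0.20 (SE; FDR 0.000243 by edgeR) in mCRS and -0.63 ± 0.22 (SE; FDR 0.0840 by edgeR) in CTR mice. Without NAc CTR replicate 7 the latter was -0.73 with an FDR of 0.0282 by edgeR. The test of the difference between the mCRS effects gave 0.40 log2 units (95% CI -0.21 to 1.01). The gene overlaps Rfc4 on the opposite strand, and whether counting used the strand is not stated.

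Eif3i, a WD-repeat subunit of eIF3, had medians of 194 CPM in the PFC and 113 CPM in the NAc of mCRS mice, and all 16 NAc libraries were below the PFC median. Its log2 fold change was -0.78 ± 0.25 (SE; FDR 0.0468 by edgeR). That call was lost under RLE normalization (FDR 0.0768), with no filter (0.0547) and with the share of genes detected in the model (0.0875). In CTR mice the medians were 116 and 138 CPM.

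**Figure D3:**
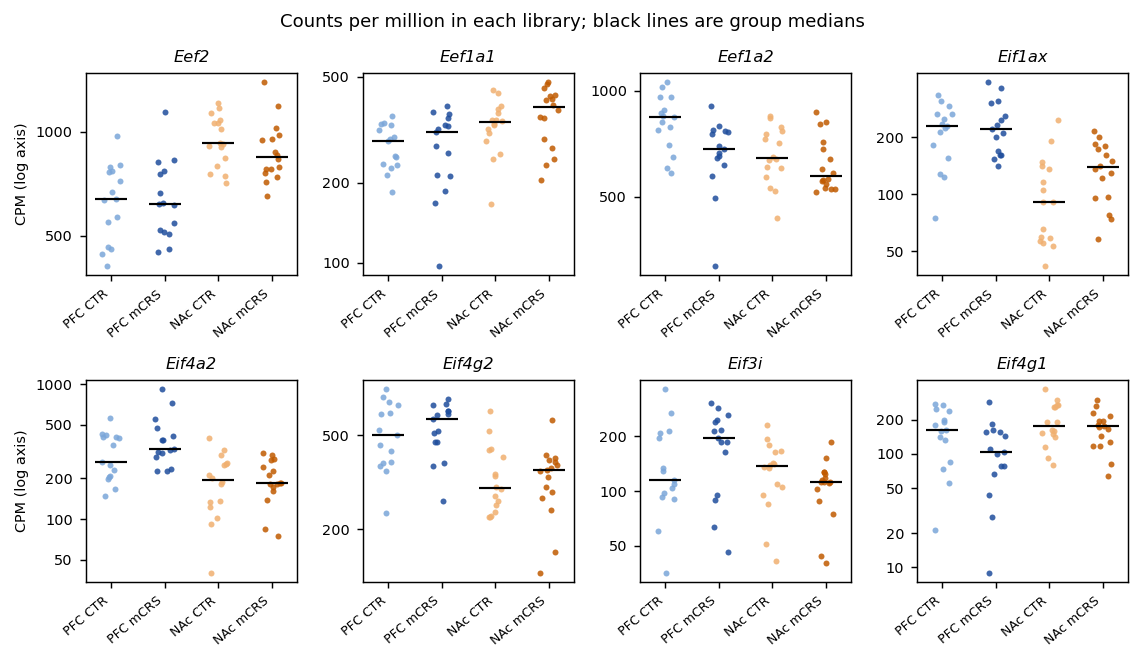
Level in each library, in CPM on a logarithmic axis, of 8 translation factors in the 4 groups; black lines are group medians. Eef2 has medians of 640 and 618 CPM in the PFC groups and 925 and 845 CPM in the NAc groups, and Eif1ax has 228 and 220 CPM against 91.1 and 139 CPM.

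Fitted changes toward the NAc were positive for 26 and negative for 33 translation factors in CTR mice, and for 22 and 36 in mCRS mice. Over all genes they were positive for 5073 and negative for 4859 in CTR mice, and for 4901 and 4551 in mCRS mice. The lean to negative changes was not shared by all roles, and it was not tested. Of 11 cap complex genes in CTR mice 4 were positive and 7 negative, and of 10 in mCRS mice 3 were positive and 7 negative. Of 10 scanning and joining factors 3 were positive and 7 negative in each set of mice. The 13 eIF3 subunits split into 6 and 7 in CTR and 5 and 8 in mCRS mice. The 9 genes of eIF2 and eIF2B split into 4 and 5 in CTR and 3 and 6 in mCRS mice. In each set of mice the 6 eEF1 genes split into 3 and 3, and the 2 genes tested of the eIF4E-binding proteins were positive. The 4 genes of eEF2, eIF5A and eEF2 kinase split into 2 and 2 in CTR and 3 and 1 in mCRS mice. The 2 eIF2 alpha kinase genes tested were positive in CTR and negative in mCRS mice, and 2 methyltransferase genes were negative in both. Of the 9 genes with a terminal oligopyrimidine start, 7 were positive in CTR and 6 in mCRS mice. Over all translation factors the median was -0.08 in CTR mice and -0.19 in mCRS mice, beside 0.02 and 0.03 over all genes. The sign was the same in both sets of mice for 44 of 58 translation factors (75.9%) and for 67.6% of all genes.

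The isoform gene Eef1a2 had a log2 fold change toward the NAc of -0.30 ± 0.12 in CTR mice (SE; FDR 0.132 by edgeR), and 15 of 16 NAc libraries were below the PFC median of 841 CPM. In mCRS mice it was -0.11 ± 0.13 (SE; FDR 0.811 by edgeR), and 11 of 16 NAc libraries were below the PFC median. Eef1a1 had 0.26 (FDR 0.425) in CTR mice and 0.37 (FDR 0.279) in mCRS mice by edgeR. The ratio of Eef1a2 to Eef1a1 CPM had NAc medians of 1.94 under CTR and 1.74 under mCRS, lower than the PFC medians given above. In a fit over all 62 libraries with treatment as a term, 6 translation factors passed the FDR threshold. Eef1a1 (0.32, FDR 0.0399) and Eef2 were higher in the NAc, and Eif1a (-0.94, FDR 0.0326), Eif1ax, Eif4a2 and Eif4g2 were lower, by edgeR. In that fit 4.41% of all genes were higher and 6.61% lower.

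Cell type markers differed between the regions as well. In CTR mice 6 of 7 cortical excitatory markers were lower in the NAc at the FDR threshold, 9 of 9 striatal markers were higher, 5 of 6 oligodendrocyte markers were higher and 3 of 5 pan-neuronal markers were lower. The 5 pan-neuronal markers summed to 5400 to 7050 CPM in PFC CTR and 2770 to 4930 CPM in NAc CTR libraries, and the 6 oligodendrocyte markers to 1710 to 5970 and 5210 to 7910 CPM. None of the lists had a marker at 0 in all libraries of a group. Their part in the regional values of translation factors was not tested.

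**Figure D4:**
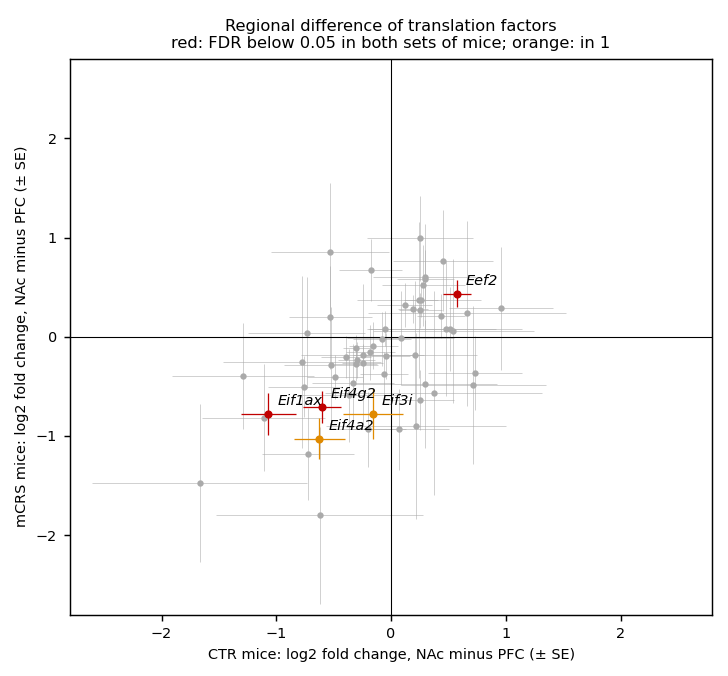
Log2 fold change, NAc minus PFC, of each translation factor in CTR mice (horizontal axis) and in mCRS mice (vertical axis), with bars of 1 SE. Eef2, Eif1ax and Eif4g2 (red) pass an FDR of 0.05 in both sets of mice, and Eif4a2 and Eif3i (orange) pass it in mCRS mice.

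Other genes of the pathway were read from a list of 36 factors and regulators without an Eif or Eef symbol, such as release factors, mTOR components and poly(A)-binding protein. In the PFC 14 of 34 tested had positive and 20 negative mCRS changes, and 1 was at an unadjusted p below 0.05. That gene, named after its values were seen, was Ddit4, an mTORC1 inhibitor induced by stress (log2 fold change 2.02 ± 0.73 SE; unadjusted p = 0.00771 and FDR 0.947 by edgeR). In the NAc 20 were positive and 16 negative, and 0 of 36 were at that p by edgeR. Between the regions of CTR mice Ddit4 was higher in the NAc (2.21, FDR 0.0166) and Cyfip2, a partner of the fragile X protein, was lower (-0.61, FDR 0.00844), by edgeR. In mCRS mice these values were 0.13 (FDR 0.963) and -0.24 (FDR 0.775), and 0 of 35 genes of the list passed, with 4 at an unadjusted p below 0.05 by edgeR.

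The precision of these values followed abundance. The biological coefficient of variation in the PFC ran from 0.321 for Eef1a2 to 1.81 among the translation factors, with a median of 0.770, beside a median of 1.01 over all genes tested. Eif3l had 0.729 and Eif2b5 had 1.07.

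**Figure D5:**
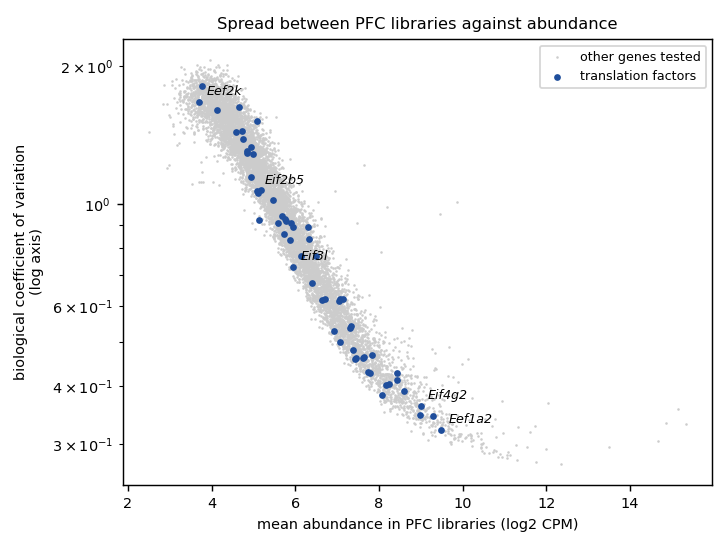
Biological coefficient of variation between PFC libraries (logarithmic axis) against mean abundance in log2 CPM, for translation factors (blue) and other genes tested (grey). The translation factors follow the trend of the other genes, from 0.321 for the abundant Eef1a2 to 1.81.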

How the data were processed

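BRB-seq read 50 ng of RNA per sample with barcoded oligo-dT primers before pooling. Per the labels and methods, reads were mapped with STAR to mm10 and uniquely mapped reads were counted per gene with HTSeq. The deposited values are these raw counts, with PCR copies included, so intervals cover the spread between libraries. The authors had removed 2 PFC samples for poor quality. Here, edgeR 4.0.16 (R 4.3.3) was used with TMM, filterByExpr and the quasi-likelihood test over all genes, with Benjamini-Hochberg adjustment. DESeq2 1.42.0 was an alternative. SE was derived from the fold change and its F statistic. Groups came from the labels. Scripts were tested on simulated data. Copies of 70-base windows of the last 500 transcript bases were sought among GENCODE M21 transcripts only.

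The genes and lists were chosen with earlier results of these data known. Named were the 8 genes of smallest p in each mCRS test, genes at FDR 0.05 between regions, a core list, genes lost to the filter and, outside that rule, genes given for context. Within a group and region libraries are taken as separate mice. PFC and NAc came from the same cohort, so many mice gave both, and the tests that span regions treat those libraries as independent because the sources used here do not link them. Samples of the same number did not deviate together (correlations -0.03 to 0.053). Since no pair is known to share a mouse, this cannot exclude that the numbers pair samples.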

Additional observations from a re-analysis of the deposited data

How the results depend on the processing

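The number of PFC genes at an unadjusted p below 0.05 (4) was 1 with the share of genes detected or with log2 library size as a covariate. A fit chosen after seeing the data took all 62 libraries with region as a term and gave 2. It estimates a single mCRS effect shared by PFC and NAc, which is a different quantity from the PFC effect. Leaving out a library from the PFC fit gave 1 to 4: 1 without PFC CTR replicate 2, 4, 5, 7 or 12 or PFC mCRS replicate 9, 11 or 14, and 2 without PFC CTR replicate 6, 8, 9 or 15 or PFC mCRS replicate 1, 7 or 13. Eif3l stayed at that p in every one. The NAc number (1) was 3 by DESeq2, 2 with the share of genes detected, 0 with all 62 libraries in one fit, and 0 to 3 without a library (0 without NAc CTR replicate 11 or NAc mCRS replicate 16; 2 without NAc CTR replicate 7, 14 or 15 or NAc mCRS replicate 1, 3, 8, 9 or 11; 3 without NAc CTR replicate 6 or 13). The CTR regional number (3) was 3 to 4 without a library. A fit of all 62 libraries with treatment as a term, chosen after seeing the data, gave 6. It estimates a regional difference shared by CTR and mCRS mice, not that of CTR mice alone. The cause of these shifts was not tested.

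Whether samples are paired by their replicate numbers is not known. With them as a replicate block the numbers were 3 (PFC), 0 (NAc), 2 (difference of effects), 4 (CTR regions) and 4 (mCRS regions). Under the block these uncalled log2 changes reversed: Eef1a1 -0.024, Eef1d -0.23 and Eef2k -0.13 in the PFC, Eif6 -0.019 in the NAc, and Eef2k -0.15 and Eif3f 0.014 in the difference. Under the block Eef2kmt in the difference fell to 0.20 (p = 0.964) from 4.41 and Eif3i between mCRS regions had an FDR of 0.165, so both calls were lost (edgeR).

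With the share of genes detected, the reversed values were Eef1a1 -0.017, Eef1b2 -0.21, Eif2s1 -0.34, Eif4ebp2 0.046, Eif4a1 -0.0029 and Eif1 0.061 in the PFC, Eif3f 0.0021 in the difference, and Eef2k -0.012 and Eif4ebp2 -0.24 between mCRS regions. With log2 library size they were Eef1b2 -0.13, Eef1g -0.00248, Eif2s1 -0.19 and Eif1 0.013 in the PFC. In the fit of a single mCRS effect shared by both regions, Eef1g was -0.085 and Eef2 -0.025, opposite in sign to their PFC values. Without a library, the PFC ranges that crossed 0 were Eef1a1 -0.022 to 0.093, Eef1b2 -0.062 to 0.11, Eef1d -0.16 to 0.16, Eef1g -0.079 to 0.11, Eef2 -0.031 to 0.11, Eif2s1 -0.13 to 0.19 and Eif3e -0.058 to 0.19. In the NAc they were Eef1b2 -0.029 to 0.092, Eef2k -0.36 to 0.31, Eif1 -0.032 to 0.044, Eif4a2 -0.067 to 0.11, Eif4e -0.078 to 0.18, Eif4g2 -0.089 to 0.071, Eif5a -0.12 to 0.0045 and Eif6 -0.15 to 0.24, and between CTR regions Eif4a1 -0.13 to 0.0048. Of 3283 values for single genes under the alternatives, 3043 kept direction and side of the threshold, 83 lost it, 33 gained it and 124 changed sign.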
